A study of Mus musculus with 227 samples.

Results

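The cells described here were mouse skeletal stromal cells sorted as positive for 6C3, an aminopeptidase on the cell surface that is encoded by Enpep. They were chosen by their sample label alone, without any measured value, and numbered 92 of the 227 single cells of the series. The main set held the 34 cells in which at least 1000 genes reached an FPKM of 1 (fragments counted per kilobase of transcript and relative to the fragments of the cell, so that levels of genes of unlike length can be compared). The other 58 cells were used only as a check.

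All cells came from the long bones (bone and bone marrow) of BL6 mice at postnatal day 3, with no transgene or treatment named. Each was captured on the Fluidigm C1 platform, which isolates cells in microfluidic chambers, and made into a SMARTer and Nextera XT library with ERCC spike-in RNA. The 6C3+ gate took cells without CD45, Ter-119 and Thy and with AlphaV, 6C3 and CD105. The groups set beside it were THY+ cells (72 cells, 43 with at least 1000 genes), mSSC cells, the mouse skeletal stem cell gate (37 and 37), and CSP cells (26 and 11). The THY+ and mSSC gates also excluded Tie2, which the 6C3+ gate does not name. The labels state that only single live cells were kept. They name no animal or culture behind a cell, so a population was treated as a single sample and no test between populations was possible. They give N7 and S5 index numbers but name no plate. The 6C3+ cells share no N7 index with the other groups, so for them index set and population cannot be told apart.

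6C3, also called BP-1, was known as an antigen of early B-lineage cells and of the marrow stromal lines that feed them before it was used to sort skeletal stroma. Stromal cells of bone and joint make fibrous matrix, signals for neighbouring cells and, at joint surfaces, lubricin, the product of Prg4. Articular chondrocytes make both lubricin and the type II and type IX collagens of cartilage, whereas fibroblasts make type I and III collagens and carry the PDGF receptor Pdgfra.

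Of the 92 cells, the number of detected genes was 4 in the lowest, 410.5 in the median and 5572 in the highest. In the main set it ran from 1031 to 5572 with a median of 2639, and a cell held 3 to 8 of 8 housekeeping genes. Spike-in RNA took a median of 18.9% of the FPKM in the main set (0.231% to 74.2%) and 96.3% in the 58 cells below the threshold. The 3 cells nearest to the threshold had 737, 780 and 787 genes below it and 1031, 1895 and 1983 above it. THY+ cells of the same depth class had a median of 2835 genes and 20.8% spike-in, and mSSC cells 2534 genes and 0.00117% spike-in. CSP cells had 3033 genes and 0.000945% spike-in. Spike-in RNA was thus nearly absent from the mSSC and CSP columns, although the preparation named above includes it. Because the spike-in shares differ, levels are given as FPKM divided by the cell's total over endogenous genes, times 1000000. That total had a median of 366748 in 6C3+, 752613 in THY+, 906237 in mSSC and 578425 in CSP cells. Detection was taken on FPKM as deposited, so in the median 6C3+ cell an FPKM of 1 is a larger part of the total. Shares of cells set beside other populations carry this difference. No index pair was shared by any cells of the series (0 pairs), and 0 pairs of 6C3+ columns were identical. The low 58 cells still listed collagen transcripts, with Col1a1 at FPKM of at least 1 in 48 of them and Col2a1 in 35, but Gapdh was listed at 0 in 56.

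**Figure D1:**
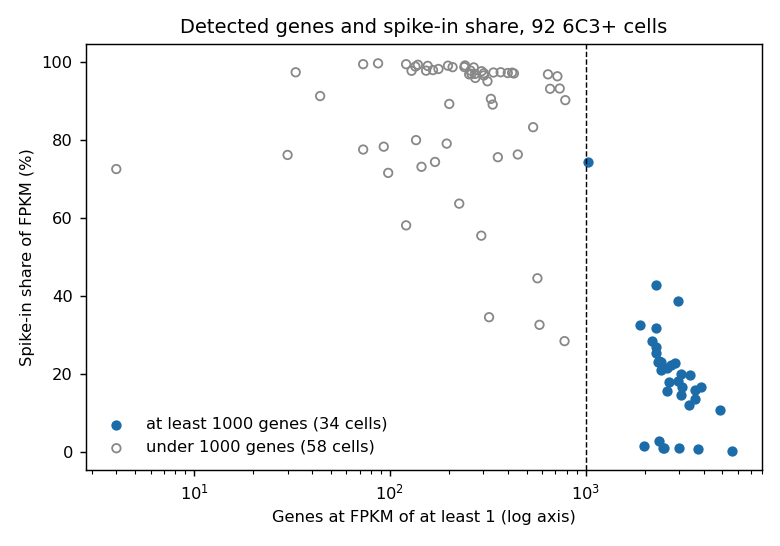
Each point is 1 of the 92 6C3+ cells, placed by its number of genes at FPKM of at least 1 (log axis) and the share of its FPKM that fell on spike-in RNA (%). The 34 cells right of the dashed line at 1000 genes form the main set, and the 58 open points left of it hold 4 to 787 genes.

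Transcripts of the sort antigens were found in part of the main set. Enpep was detected in 9 of 34 cells, or 26.5% (exact Clopper-Pearson 95% interval 12.9% to 44.4%, which like all intervals here covers counting error between cells only). In the 9 cells its level had a median of 104 and reached 577. By comparison, Enpep was detected in 3 of 43 THY+ cells and 0 of 37 mSSC cells. Itgav, the AlphaV integrin, was detected in 22 cells and Eng, which encodes CD105, in 3, although the gate asked for both proteins. Thy1 was listed at 0 in all 34 cells, which at 3 cells of 34 allows a share of cells with detected Thy1 of up to 8.82% (counting error only), while 9 of 43 THY+ cells had it. Ptprc (CD45) was detected in 0 cells, Tek (Tie2) in 1 and Cd200 in 11. The labelled antigen was thus seen as RNA in a minority of the cells sorted for it, and none of the 58 low cells had Enpep (0 cells).

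Enpep lies on chromosome 3 (129269175 to 129332720, minus strand, mm10), Prg4 on chromosome 1 (150449412 to 150466165, minus strand), Pdgfra on chromosome 5 (75152292 to 75198215, plus strand) and Thbs4 on chromosome 13 (92751590 to 92794818, minus strand). Promoter sequence is shown for the gene that defines the gate and for Wif1 and Chad, a secreted WNT inhibitor and a cartilage matrix protein whose detection followed that of Prg4 and of cartilage genes in these cells. Each sequence runs from 250 bases before to 50 bases after the RefSeq gene start (GRCm38.p6), 5′ to 3′ on the gene's strand, at chr3:129332700-129332999 (minus), chr10:121033754-121034053 (plus) and chr11:94564797-94565096 (plus). Capitals mark TATAAA, the core of the TATA box, on either strand, so that a match on the opposite strand reads TTTATA.
Enpep: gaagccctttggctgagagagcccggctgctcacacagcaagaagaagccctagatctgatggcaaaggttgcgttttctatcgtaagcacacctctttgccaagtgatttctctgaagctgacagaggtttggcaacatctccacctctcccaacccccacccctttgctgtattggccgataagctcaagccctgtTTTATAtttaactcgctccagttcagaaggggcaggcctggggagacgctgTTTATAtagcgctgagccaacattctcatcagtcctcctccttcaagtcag
Wif1: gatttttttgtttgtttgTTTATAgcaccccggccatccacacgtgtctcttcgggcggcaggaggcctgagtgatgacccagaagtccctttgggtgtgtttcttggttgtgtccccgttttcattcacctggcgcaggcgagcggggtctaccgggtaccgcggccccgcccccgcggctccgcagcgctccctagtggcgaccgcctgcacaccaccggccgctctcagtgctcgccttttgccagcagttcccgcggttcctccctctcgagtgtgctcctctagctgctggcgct
Chad: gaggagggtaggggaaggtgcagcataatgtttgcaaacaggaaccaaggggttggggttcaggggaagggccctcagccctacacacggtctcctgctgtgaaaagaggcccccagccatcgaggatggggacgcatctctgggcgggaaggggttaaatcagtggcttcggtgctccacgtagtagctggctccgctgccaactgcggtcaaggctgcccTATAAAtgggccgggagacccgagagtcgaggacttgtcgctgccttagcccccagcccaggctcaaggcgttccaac
The match in Chad begins 28 bases before the start, and that in Wif1 232 bases before it. The Enpep window holds 2 matches, which begin 52 bases and 1 base before the RefSeq start. That start lies upstream of the GENCODE gene position given above for Enpep, and the RefSeq start of Wif1 also differs from that of GENCODE. TATAAA on either strand was present in 13.6% of all promoters in the table (4473 of 32851), and a match is a description of the letters only.

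Prg4, which encodes the joint lubricant lubricin, was the most widespread of the 4 genes named as markers of these cells, together with Pdgfra. Prg4 was detected in 25 of 34 cells (73.5%, interval 55.6% to 87.1%) and its level ran from 0 through a median of 294 to 27291. Pdgfra, the PDGF receptor alpha of mesenchymal cells, was also detected in 25 cells (73.5%), at 0, 46.6 and 345 for the lowest, median and highest. Both genes were therefore detected in the same share of cells, but Prg4 levels spread over a far wider range. Thbs4, a thrombospondin of tendon and muscle attachments, was detected in 16 cells (47.1%, interval 29.8% to 64.9%), with a highest level of 2557. Of the 4 markers, 3 cells held all 4, 9 cells held 3, 15 held 2, 6 held 1 and 1 cell held 0. In the other populations Prg4 was detected in 14 of 43 THY+, 19 of 37 mSSC and 1 of 11 CSP cells. Pdgfra was detected in 22 of 43 THY+ and 3 of 37 mSSC cells, and Thbs4 in 17 and 2 respectively.

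Collagen and other matrix transcripts were among the most abundant named transcripts of the main set. Ranked by median level, Col1a1 (10644), Sparc (10283) and Col1a2 (10247) led. Col1a1 and Col1a2 encode the chains of type I collagen and Sparc a collagen-binding matrix protein of bone and connective tissue. They were followed by Actb (8095), Col2a1 (6639), the chain of type II collagen of cartilage, Mgp (6393), a matrix inhibitor of calcification, and Itm2a (5914), a membrane protein of cartilage and muscle. Bgn, a small proteoglycan, had a median of 4241 and was detected in all 34 cells, from 215 to 9811. Fstl1, a secreted follistatin-like glycoprotein, had a median of 3531, Col3a1 2844, Igf2, a growth factor of fetal tissue, 2637, and Vim, the intermediate filament of mesenchymal cells, 2502. The other genes of the first 20 were Ubb, Eef1a1, Cox6a1, Ppia, Malat1, Fth1, Cd9 and Crip1, most of them genes that cells of many types use. The ranks are medians over all 34 cells, of which 29 held Col1a1 and 27 Col2a1, so they need not describe any single cell. The 44 collagen genes took a median of 4.89% of a cell's endogenous FPKM (1.85% to 18.1%), and the 86 ribosomal protein genes 9.29%. The collagen share had a median of 3.06% in THY+, 5.14% in mSSC and 5.88% in CSP cells. In all, 64 genes were detected in every cell of the main set, of 12018 detected in any.

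Most fibrous collagen genes were widely detected. Of 12 fibrous collagen genes, 11 were detected in at least 50% of the cells, and each cell held 6 to 12 of them with a median of 10. Col6a2, a chain of the beaded type VI collagen around cells, was detected in all 34 cells at 250 to 4743 with a median of 1209, and Col6a1 and Col6a3 were also detected in all 34. Col1a2 was detected in every cell too, at levels from 21.5 to 55914. Col1a1 was detected in 29 and missing in 5. Type VI collagen was thus present in every cell, whereas the 2 chains of type I collagen were not always found together. Of 9 small proteoglycan genes, 7 were detected in at least 50% of cells, among them Dcn in 23, Prelp in 26, Fmod in 22 and Aspn in 17, proteins that coat and space collagen fibrils. Of 13 matrix proteases and inhibitors, all 13 were detected in some cell, led by the gelatinase Mmp2 (32 cells, median level 405), the collagen chaperone Serpinh1 (32, median 196) and the inhibitor Timp2 (30, median 363).

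Fibroblast genes were present in every cell but in different number. Each cell held 4 to 18 of 22 such genes, with a median of 10.5, and 10 of the 22 were detected in at least 50% of cells. Beside the collagens and Pdgfra these included Gas1, a membrane protein that binds hedgehog ligands (27 cells, median level 278), Gsn, an actin-severing protein (25 cells), and Postn, the matricellular periostin of periosteum and ligament (24 cells). Fap, a surface protease of activated fibroblasts, was detected in 21 cells. Ly6a, which encodes Sca-1, was detected in 11 cells with a highest level of 4266, against 3 of 43 THY+ and 0 of 37 mSSC cells. Pi16, a marker of adventitial fibroblasts, was listed at 0 in all 34 cells.

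Articular surface genes were detected in parts of the population. A cell held 0 to 8 of 12 of them, with a median of 5. After Prg4 the most often detected were Dkk3 (23 cells), a secreted glycoprotein of the dickkopf family, Abi3bp (19), Clu, the chaperone clusterin (18), and Creb5, a transcription factor known to drive Prg4 in articular cartilage (18). Vit was detected in 14 cells, Erg, a transcription factor of joint cartilage, in 10, and Cilp2, a matrix protein of the cartilage intermediate layer, in 10. Gdf5, the growth factor of the embryonic joint interzone, was detected in 2 cells and Cilp in 4. Of 8 synovial lining genes a cell held 0 to 6 with a median of 2. Htra1, a secreted protease, was detected in 21 cells, Sema3a, a guidance signal, in 17 and the hyaluronan receptor Cd44 in 16. Clic5, known in lubricin-producing lining cells, was detected in 1 cell, so the articular and lining lists were each represented by some members and nearly lacked others.

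Prg4 and Pdgfra were often found in the same cell. Both were detected in 19 of 34 cells (55.9%, interval 37.9% to 72.8%), Prg4 alone in 6, Pdgfra alone in 6 and neither in 3. The product of their shares corresponds to 18.4 cells, and the phi coefficient of detection, a correlation of presence and absence that runs from -1 to 1, was 0.09 over the 34 cells. The overlap was thus about what the shares alone give. Prg4 and Thbs4 were detected together in 11 cells (32.4%, interval 17.4% to 50.5%), against a product of 11.8. Prg4 and Enpep met in 5 cells, Enpep and Pdgfra in 8 of the 9 Enpep cells, and Pdgfra and Thbs4 in 12. All these pairs share the depth of the cell they come from: cells with Pdgfra had a median of 2877 detected genes and those without 2298, whereas cells with Prg4 had 2614 and those without 2967.

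Prg4 detection went with that of several cartilage matrix genes. Over the 20 cartilage genes detected in the main set, phi with Prg4 had a median of 0.37 and ran from -0.22 to 0.68. Col2a1 was detected in 24 of the 25 Prg4 cells and in 3 of the 9 others, so that both were present in 24 of 34 cells (70.6%, interval 52.5% to 84.9%) against a product of shares of 19.9, with a phi of 0.68. The 6 genes whose detection was most like that of Prg4 over the 34 cells were Wif1 (phi 0.76), Fibin (0.72), Col2a1 (0.68), Lect1 (0.68), Col9a1 (0.68) and Hapln1 (0.64). These are the highest values over all named genes detected in 20% to 80% of the cells, so their size owes in part to the choice. The highest phi for Thbs4 (0.71) and for Enpep (0.70) were of like size. Fibin encodes a secreted protein of the fin bud and limb, Lect1 the cartilage protein chondromodulin, Col9a1 a chain of type IX collagen and Hapln1 the link protein that holds aggrecan to hyaluronan. Wif1, which binds and inhibits WNT ligands and whose promoter is printed above, was detected in 21 cells, and all 21 held Prg4. Clu was detected with Prg4 in 17 cells and without it in 1 (phi 0.50). Other articular surface genes had a lower phi with Prg4: Cilp2 0.24, Abi3bp 0.14, Erg 0.09, Creb5 -0.03 and Dkk3 -0.27. Sox9, the transcription factor that directs cartilage formation, was detected in 21 of the 25 Prg4 cells and in all 9 others (phi -0.22), and Acan, the large proteoglycan of cartilage, had a phi of 0.30, so not every cartilage gene shared the pattern.

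Another set of genes lay on the other side of that pattern. Ly6a and Prg4 were detected together in 5 cells, Prg4 alone in 20 and Ly6a alone in 6, with a phi of -0.44. Clu and Ly6a met in 1 cell, with Clu alone in 17 and Ly6a alone in 10 (phi -0.61). Postn was detected in 15 of the 25 Prg4 cells and in all 9 others. Ptn, which encodes the secreted growth factor pleiotrophin, was present in all 11 Ly6a cells. For the other markers the genes of most similar detection were no matrix genes: Slc20a1, a phosphate transporter, for Pdgfra (phi 0.64), Ccdc59 for Thbs4 (0.71) and Fam189b for Enpep (0.70).

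The number of cartilage genes per cell separated the 34 cells into a low and a high range. Of 21 cartilage genes, 18 cells held 12 to 18 (median 15) and 16 cells held 1 to 8 (median 4.5), while 0 cells held 9 to 11. This boundary at 12 genes was placed after the gap had been seen, so both are ranges of a count and not named types, and the values below describe them without a test. With detection at FPKM of at least 10 in place of 1, the share of cells with 12 or more was 44.1% in place of 52.9% (interval 35.1% to 70.2%), with 2 cells at 11. The same count gave 12 or more in 8 of 43 THY+ cells (18.6%, interval 8.39% to 33.4%), 33 of 37 mSSC cells (89.2%) and 10 of 11 CSP cells, and 6 THY+ cells held 9 to 11. Each of these shares comes from 1 sample, so the spread between samples of a population is unknown.

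**Figure D2:**
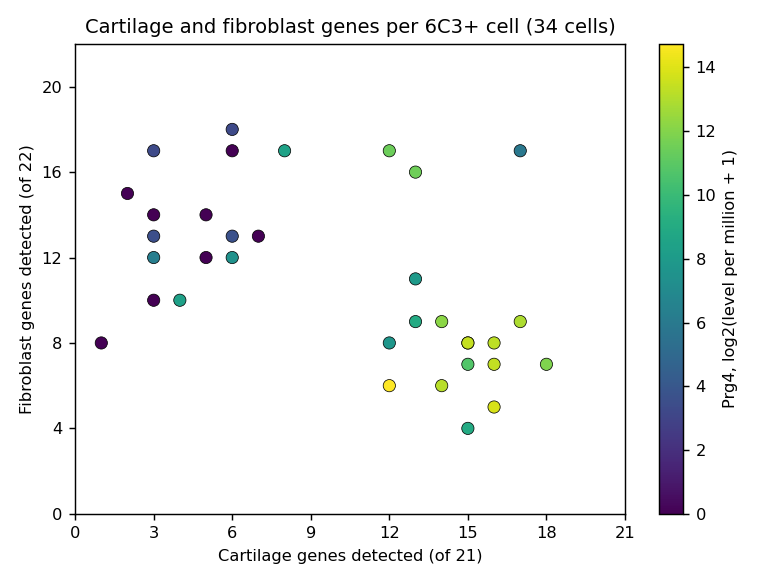
Each point is 1 of the 34 6C3+ cells of the main set (coinciding points overlap), placed by how many of 21 cartilage genes and of 22 fibroblast genes it held and coloured by its Prg4 level as log2(level + 1). The 18 cells right of the gap at 9 to 11 cartilage genes held 4 to 17 fibroblast genes, and the 16 cells left of it 8 to 18.

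In the 18 cells with many cartilage genes, Prg4 and several genes outside the cartilage list were abundant. Col2a1, a member of the list whose contrast therefore follows in part from the boundary, ran from 1022 through a median of 28456 to 93465, against 0, 5.08 and 3748 in the other 16 cells. Prg4 was at 59.6, 4174 and 27291 (lowest, median, highest) in the 18 cells, all of which held it, and at 0, 4.40 and 363 in the 16, of which 7 held it. The Prg4 ranges overlapped between 59.6 and 363 only, although Prg4 was not in the cartilage list. Wif1 was at 66.8, 1357 and 5590 in the 18 cells and was detected in 3 of the 16, where it reached 559. Clu was detected in 17 against 1 cell and Fibin in 18 against 2, and neither is a member of the list. Wif1 and Fibin were named for their high phi with Prg4 over these same 34 cells, so their contrast is no separate support. Chad, a member of the cartilage list, was detected in 17 against 0. Of the 12 articular surface genes, 9 had a larger share among the 18 cells and 3 among the 16. The 3 included Dkk3, detected in 10 of the 18 and 13 of the 16, and Tspan15, detected in 0 and 6. Some of the 9 had near-equal shares, such as Creb5, detected in 10 of the 18 and 8 of the 16. The same count over all genes was not made, so the 9 of 12 cannot be read as particular to articular surface genes.

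In the 16 cells with few cartilage genes, most fibroblast genes were detected in a larger share of cells. Of the 22, 15 had a larger share among these 16 cells, 4 among the other 18 and 3 the same share in both. The same count over all genes was not made. The 16 cells also had more detected genes (median 2973.5 against 2479), so the 15 of 22 cannot be read as particular to fibroblast genes. The 16 cells held a median of 13 of them (8 to 18), against 8 (4 to 17) in the 18. Among the 4 with a larger share in the 18 were Dcn, detected in 14 of the 18 at a median of 1071 and in 9 of the 16 at 55.6, and Fap, detected in 13 and 8. Postn was detected in all 16, at 8.76, 3466 and 11302, and in 8 of the 18, at 0, 0 and 11932, so the ranges overlapped. Ly6a was detected in 10 against 1 cell, Dpt, a collagen-binding matrix protein of dermis and fascia, in 9 against 3, Aspn in 13 against 4 and Prrx1, a transcription factor of limb mesenchyme, in 12 against 4. Basement membrane genes numbered a median of 6 of 11 against 2.5, with Col4a1, a chain of type IV collagen, in 14 against 3 cells. Thymosin Tmsb4x, which binds actin, was detected in 16 against 5. The named markers other than Prg4 were found on both sides: Pdgfra was detected in 10 of the 16 and 15 of the 18, Thbs4 in 10 and 6, and Enpep in 6 and 3. Col1a1 was detected in all 16 at a median of 12359 and in 13 of the 18 at a median of 3342, and its highest levels were 93520 and 95449.

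Other measures moved with the cartilage count as well. The 18 cells had a median of 2479 detected genes and 21.3% spike-in, and the 16 cells 2973.5 genes and 17.2%. Dissociation stress genes, such as Fos and Egr1, numbered a median of 12 of 16 in the 18 cells (0 to 16) and 6.5 in the 16 (4 to 14). Cells with many cartilage genes came from all 8 S5 index numbers of the 6C3+ cells and those with few from 6. An S5 index with 2 cells and another with 4 cells held only the former. Cells of 2 S5 indices had median spike-in shares of 0.807% and 0.893%, against 16.7% to 26.8% in the other 6. The part of gene number, stress genes or index numbers in the split was not tested.

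**Figure D3:**
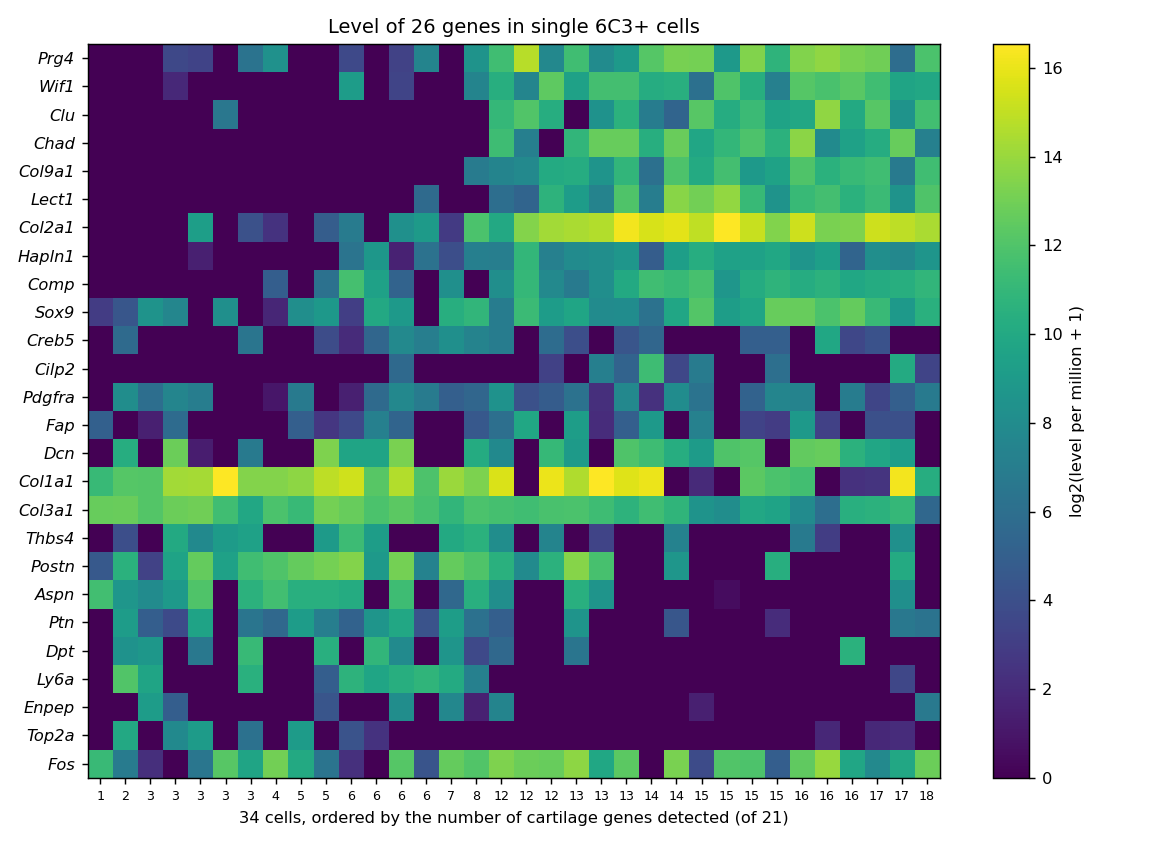
Levels of selected genes (log2(level + 1), colour scale) in each of the 34 6C3+ cells of the main set, with the cells in columns ordered by their number of cartilage genes. Col2a1 and Wif1 are detected in all 18 cells with 12 or more and Chad in 17 of them, whereas Postn, Ly6a and Dpt are detected mostly in the other 16, and Pdgfra is detected on both sides.

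Members of the cartilage list differed in how often they were detected. Ucma, a protein of upper growth plate cartilage, was detected in 8 of them and in 0 of the 16, and Matn3 in 5 and 0. Matn1, a cartilage matrilin, was listed at 0 in all 34 cells, against 25 of 37 mSSC cells with it, and Epyc was detected in 2. Sox9 was detected in 30 of the 34 cells at a median level of 499.5, and Acan in 26. All 4 hypertrophic chondrocyte genes, such as Col10a1 and Ihh, were listed at 0 or below an FPKM of 1 in every cell (0 of 4 genes detected).

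Genes of the tendon list were detected in every cell, though in different number. A cell held 1 to 9 of 10 tendon genes with a median of 4. Egr1 was detected in 29 cells, Tnc and Comp in 24, Thbs2 in 23 and Fmod in 22. Egr1 is also a member of the stress list and Comp of the cartilage list. Comp and Fmod were detected in all 18 cells with many cartilage genes, and in 6 and 4 of the other 16. The count therefore does not by itself mark tendon cells. Tnmd, the tendon protein tenomodulin, was detected in 8 cells and reached 8402, and Scx, the transcription factor of tendon progenitors, was detected in 2. Of the 16 Thbs4 cells 15 also held Postn and 6 held Tnmd.

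Genes of marrow stroma were mostly low. Of 13 such genes a cell held 0 to 6 with a median of 2.5. Foxc1, a transcription factor of marrow niche cells, was detected in 20 cells, the macrophage growth factor Csf1 in 15, Bmp4 in 10 and Cxcl12, the chemokine that holds blood stem cells in marrow, in 7. Kitl was detected in 3 cells and Lepr, the leptin receptor that marks adult marrow stroma, in 1, while Adipoq and Il7 were detected in 0. Among 22 ligands of the skeletal niche, Igf2 was detected in 33 cells, Angptl2 in 25, Ptn in 20, Tgfb2 in 18, Bmp2 in 14, Igf1 in 13 and Fgf18 in 10. A cell held a median of 5.5 of the 22. Of 15 BMP and WNT modulators a cell held a median of 3, with Fstl1 in 33 cells, Dkk3 in 23 and Wif1 in 21, and of 8 genes for IGF receptors and binding proteins a median of 4, with Igf2r in 34 and Igfbp7 in 31. Of 20 limb patterning genes a cell held a median of 3. Tbx15 was detected in 17 cells, Tbx4, a T-box factor of the hindlimb, in 15 and Hoxa10 in 11.

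Markers of blood and endothelium were near 0, and those of pericytes and smooth muscle were few in most cells. In the main set 0 of 8 pre-B and 0 of 7 measured erythroid genes were detected, 1 of 10 myeloid genes was detected in 1 cell (Cd68), and 4 of 10 endothelial genes in 3 cells. Pericyte and smooth muscle genes were detected in 27 cells, 10 of 11 genes in all, with a median of 1 gene per cell and at most 6. They rested mainly on Pdgfrb (20 cells) and Cspg4 (17), genes that other mesenchymal cells also express. Rgs5 was detected in 6 cells, Mcam in 3, Acta2 in 2, Myh11 in 0 and the other 5 in 1 each. The 1 cell with 6 of these genes also held 3 adipocyte genes, 1 cartilage gene and 0 of the 4 named markers. Of 14 osteoblast genes a cell held a median of 1.5. Sparc was in all 34 cells, Runx2 was detected in 4 and Bglap, which encodes osteocalcin, in 0. Of 7 adipocyte genes 3 were detected, in 5 cells. The muscle gene Acta1 was detected in 6 cells and Des in 2, the glial S100b in 9, and of osteoclast genes Ctsk in 20 but Acp5 in 1.

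Col2a1 and Col1a1 had the largest cell-to-cell spread for their level. Over 1705 genes that at least 50% of cells held, the SD of log2(level + 1) had a median of 3.26 (0.66 to 6.23), and it includes the technical loss of transcripts in single cells. Relative to genes of like mean level, Col2a1 varied most, with an SD of 6.23 where such genes had a median of 2.02. Col1a1 had an SD of 5.56 against the same median, and the next were Crip1, Tmsb4x, Gpx1, Chad, Vim, Mgp, Mt1 and Nupr1. The 10 genes thus held 4 of matrix proteins beside cytoskeletal and stress-response genes. The smallest spread for their mean was that of Hnrnpl, which binds RNA, with an SD of 1.29 against 3.40. Among the 10 least variable, Pabpc1, Ncl and Prrc2c also encode proteins that bind RNA or act in translation, and Igf2r encodes the receptor that clears IGF2.

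**Figure D4:**
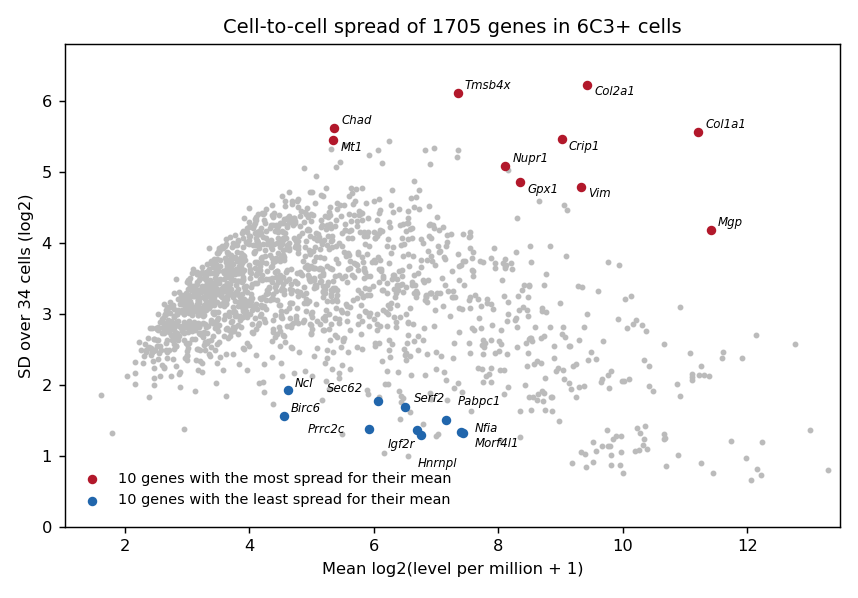
Each point is 1 of 1705 genes held by at least 50% of the 34 6C3+ cells, with its mean log2(level + 1) on the x axis and its SD over cells on the y axis. Red points, such as Col2a1 at an SD of 6.23, are the 10 genes with the most spread for their mean, and blue points, such as Hnrnpl at 1.29, the 10 with the least.

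Set beside THY+ cells, the 6C3+ cells had on average more Prg4 and more cartilage transcripts. Differences are between the means of log2(level + 1) over cells with at least 1000 genes, and a gene was counted as higher or lower at a difference of at least 2, a 4-fold change. Of 8897 genes detected in at least 10% of either population, 104 were higher in 6C3+ cells (1.17%) and 39 lower (0.438%), and with FPKM as deposited 18 were higher and 78 lower. The median over all genes was 0.04, and -0.25 with FPKM as deposited. Which cells were drawn adds to every difference an error that 1 sample per population cannot measure, and the scale understates differences of low genes. Prg4 had the largest difference of the named genes, 5.09, and it lay between 3.09 and 6.20 over all alternative settings. Of 20 cartilage genes compared, 9 were higher and 0 lower, with a median of 1.47, and 5 were higher with FPKM as deposited. They included Col2a1 (3.52), Chad (3.47), Col9a2 (3.28), Lect1 (3.13) and Sox9 (3.05). Of 11 articular genes 2 were higher, Prg4 and Clu (3.00), with a median of 0.58.

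Other genes higher in 6C3+ than THY+ cells were Scrg1 (3.80), a secreted protein of differentiating cartilage, Nupr1 (3.47), a stress-induced nuclear protein, Itm2a (3.45), Wif1 (3.37), the sulfatase Sulf2 (3.36), Rcan1 (3.33), an inhibitor of calcineurin, and Cthrc1 (3.22). With all cells in place of those with at least 1000 genes, Itm2a was at -0.31. Lower were Col4a1 (-3.44), Marcks (-2.94), a membrane-bound substrate of protein kinase C, the nuclear receptor Nr2f2 (-2.64), the actin-binding Cnn2 (-2.60) and Tmsb4x (-2.60), and Postn (-2.46). With the log2 of the mean level in place of the mean of logs, Tmsb4x was at 0.24 and Crip1 turned from -2.37 to 0.072. Of 10 pericyte and smooth muscle genes 6 were lower and 0 higher, with a median of -2.06, also with FPKM as deposited. Rgs5, which marks pericytes, was detected in 6 of 34 6C3+ and 16 of 43 THY+ cells. Of 10 basement membrane genes 2 were lower, Col4a1 and Col4a2 (-2.10). Of 20 fibroblast genes 3 were higher (Dcn, Ly6a and Fap) and 1 lower (Postn), with a median of 0.40. With FPKM as deposited 0 were higher and 1 lower, and the median was -0.16. None of the 12 fibrous collagen genes passed the fold (0 of 12), with a median of 0.20 that became -0.52.

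Set beside mSSC cells, the 6C3+ cells had on average higher levels of most fibrous collagen genes and lower levels of most cartilage genes. Of 8650 genes compared, 246 were higher (2.84%) and 126 lower (1.46%), and with FPKM as deposited 59 were higher and 351 lower. The median over all genes was 0.25, and -0.13 with FPKM as deposited. Of 12 fibrous collagen genes 9 were higher and 0 lower, with a median of 3.47, and 6 were higher with FPKM as deposited. Col1a1 was higher by 6.68, Col5a2 by 4.77 and Col6a2 by 4.52. Of 20 fibroblast genes 12 were higher and 0 lower (median 2.35), among them Postn (5.16), Pdgfra (4.28) and Gas1 (4.08). With FPKM as deposited 8 of them were higher and 1 lower. Of 11 articular genes 5 were higher and 0 lower (median 1.80), with Prg4 at 3.95 and Dkk3 at 3.29, and 2 were higher with FPKM as deposited.

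Of 21 cartilage genes compared with mSSC cells, 16 were lower and 0 higher, with a median of -4.69, and 19 were lower with FPKM as deposited. The lowest were Ucma (-9.17), Matn3 (-6.86), Lect1 (-6.66), Matn1 (-6.65) and Mia (-6.29). Lect1, Col9a2 and Chad were therefore higher in 6C3+ than in THY+ cells and lower than in mSSC cells (Col9a2 at -5.58, Chad at -5.06). Both comparisons use the same 34 6C3+ cells, and their means combine the 18 cells with 12 or more cartilage genes and the 16 with fewer. Lect1 had a median level of 1951 in the 18 and 0 in the 16, and Chad 1714 and 0. The mean differences therefore do not describe each 6C3+ cell. Other genes higher in 6C3+ than in mSSC cells were Lgals1 (6.70), the secreted lectin galectin-1, Matn2 (6.01), a matrilin of connective tissue, Sulf2 (4.91), Igfbp4 (4.54), Fhl1 (4.41) and Nupr1 (4.35), the last of which was at -0.36 with all cells. Of 9 tendon genes 3 were higher and 1 lower, and with FPKM as deposited 2 were higher and 2 lower. Thbs4 was higher by 3.50.

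**Figure D5:**
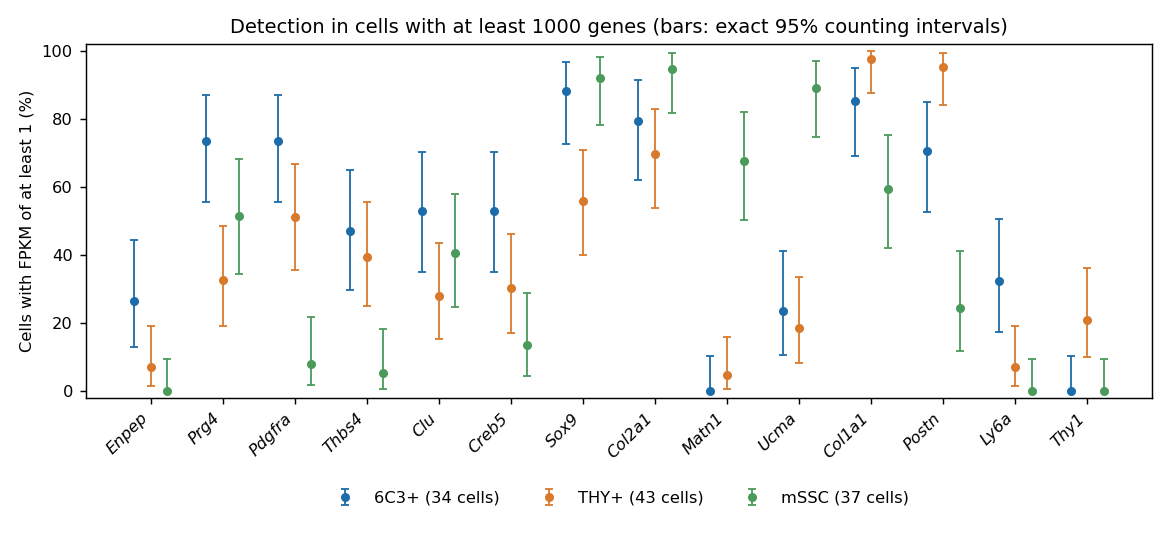
Share of cells (%) in which each marker or list gene was detected at FPKM of at least 1, for cells with at least 1000 genes of the 6C3+ (34), THY+ (43) and mSSC (37) populations, with exact 95% intervals that cover counting error only. Prg4 stands at 73.5% in 6C3+ cells, and Pdgfra at the same share.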

How the data were processed

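The deposited table gave FPKM, estimated by the authors, for 24388 genes and 92 spike-ins in each cell. Per the submitters' processing notes the build was mm10 and SAMtools was used. The aligner, the program behind the FPKM and its annotation were not given in the sources used here. Read counts cannot be had from FPKM, so the depth per cell is unknown, and the table held 0 mitochondrial genes. Columns were matched to cells by the index names in the labels.

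Spike-ins were dropped, and FPKM was rescaled to 1000000 per cell over endogenous genes. A gene was detected at an FPKM of at least 1, and comparisons used a pseudocount of 1. Spread was judged in 20 bins of mean level, and phi over genes detected in 20% to 80% of cells. No p-value was computed. Scripts were tested on simulated data. The tools were matplotlib 3.10.9, scipy 1.17.1, pandas 2.3.3, numpy 2.4.6 and Python 3.11.15. Gene positions came from GENCODE and promoters from RefSeq, which matched Enpep, Wif1 and Chad. The table lists Cnmd as Lect1 and held 7 of 8 erythroid genes.

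The genes to name were the markers, the sort antigens, the 20 most abundant, the 10 most and 10 least variable, the 12 highest and 12 lowest differences per comparison (where the population with more had the gene in 50% of its cells or more), the 5 most often detected members of each of 30 gene lists and the 6 genes of highest phi per marker. Gene models without a name, pseudogenes and ribosomal genes were left out. Any other gene named was chosen once its values had been seen. The members and lists were chosen with earlier results of these data known. Alternatives were detection above 0 or at FPKM 10, detection on rescaled levels, all cells, cells with at least 2000 genes, cells matched on detected genes, cells without blood or endothelial genes, pseudocounts of 0.1 and 10, FPKM as deposited, no filter on genes, a mean level of at least 10, and the log2 of the mean.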

Additional observations from a re-analysis of the deposited data

How the results depend on the processing

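With all 92 cells in place of 34, the share of 6C3+ cells with Enpep was 9.78%, with Prg4 50%, with Pdgfra 31.5% and with Thbs4 26.1%, and the shares with Prg4 and Pdgfra, Prg4 and Thbs4, and Prg4 and Col2a1 were 21.7%, 16.3% and 45.7%. Of the genes compared with THY+ cells, 1.17% were higher and 0.438% lower, and these shares were 3.64% and 2.14% with a pseudocount of 0.1, 0.247% and 0.0337% with 10, 0.202% and 0.877% with FPKM as deposited, 0.0154% and 1.49% with all cells, and 6.52% and 11.004% with the log2 of the mean level. The lower share was 0.871% in cells with at least 2000 genes and 1.59% in cells matched on detected genes. Against mSSC cells 2.84% were higher and 1.46% lower, and the shares were 8.36% and 3.21% (pseudocount 0.1), 0.520% and 0.474% (10), 0.682% and 4.06% (FPKM as deposited), 0.229% and 14.98% (all cells), and 13.46% and 8.51% (log2 of the mean level), with 2.38% lower in matched cells. Of the 20 genes of most and least spread, 13 were also found from FPKM as deposited. With all cells Itm2a was at -0.31 against THY+ and Nupr1 at -0.36 against mSSC, and with the log2 of the mean level Crip1 was at 0.072 and Tmsb4x at 0.24 against THY+. The causes were not tested.

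The other 55 shares and counts stayed within their interval or within 1.5 times, and 422 differences of single genes kept their direction and their side of the 4-fold limit, while 54 kept the direction only. The share of cells with 12 or more cartilage genes at other detection thresholds was added after seeing the data. No paired analysis was possible because the replicate numbers follow accession order and each population is 1 sample. Depth is unknown, so a value of 0 does not exclude a transcript from a cell.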

Other observations

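Proliferation genes divided the 34 cells unevenly. In 7 cells 8 to 15 of 17 such genes were detected, the other cells held at most 5, and 10 cells held 0. Top2a, the topoisomerase of dividing chromosomes, and the replication genes Pcna and Tyms were detected in all 7 cells and Mki67 in 6. None of the 7 held 12 or more cartilage genes (0 cells), Thbs4 was detected in 6 of them and Prg4 in 4. They had a median of 2993 detected genes, against 2492 in the others, and the part of gene number was not tested.

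Transcripts of the inactive X and of the Y chromosome were both found, nearly always in different cells. Xist, the RNA of the inactive X chromosome, was detected in 15 of the 34 cells, at least 1 of 4 Y-linked genes in 19, both in 1 cell and neither in 1. The cells with 12 or more cartilage genes held Xist in 7 and a Y-linked gene in 11, and the other 16 in 8 and 8.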
